A study of Mus musculus with 20 samples.

Results

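Mediator is a large coactivator complex that carries signals from DNA-bound transcription factors to RNA polymerase II. The transcripts described here are those of its mouse subunits, taken from the gene table by name: every symbol made of Med and a number, with or without a final l, plus Ccnc, Cdk8 and Cdk19. The rule found 33 of the 25208 genes in the table, and all 33 passed the filter on low counts that left 16603 genes for testing. They were measured by RNA sequencing in 20 libraries of mouse preimplantation embryos, in 10 groups of 2.

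The controls carry the genotype label WT, and the other embryos the label P300 knockdown, which is named siRNA in the titles. Both were sampled at 4 stages: late 2-cell, then 4-cell, then the early and the late part of the 8-cell stage. The late 2-cell libraries carry later sample numbers than all the others. A possible batch difference cannot be told apart from the late 2-cell stage. At the late 8-cell stage there are 2 further groups, in which P300 siRNA embryos also received I1394G or NaCr and are labelled as rescues. The labels spell out neither name. I1394G has the form of an amino acid change and is taken to be a p300 mutant, and NaCr is taken to be sodium crotonate. All groups came from zygotes grown in KSOM medium, and the libraries were made with Smart-seq2. The labels used here give no mouse strain, no number of embryos per library and no siRNA sequence. They do not say whether the 2 libraries of a group came from separate collections, so the p-values measure the spread between libraries, which may be technical.

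In the complex, the head and middle modules contact RNA polymerase II, and the tail is the main docking surface for activators. Med14 runs through the core as a scaffold, and Med27 to Med30 lie at the head and tail of the animal complex. A separable kinase module (Cdk8 or Cdk19 with cyclin C, Med12 or Med12l, and Med13 or Med13l) binds the core reversibly and blocks its contact with the polymerase. The acetyltransferase p300, encoded by Ep300, is recruited by many of the same activators as Mediator and sits with it at enhancers. The mouse embryo starts broad transcription of its own genome at the 2-cell stage while maternal transcripts are being lost.

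Library totals ranged from 3202332 to 24785201 counts, the lowest being P300 siRNA late 8-cell replicate 1. The 2 libraries of a group correlated at r between 0.964 and 0.994 across genes, and none was a copy of the other. For control early 8-cell replicate 2 the FPKM column correlated with its counts at 0.855, against 0.996 or more elsewhere, so it was left out of levels given in FPKM (fragments scaled to transcript length and library depth). Of the 10 embryo markers Pou5f1, Dppa3, Tfap2c, Nanog, Gdf9 and Zp3 were never at 0. Sox2 and Cdx2 were at 0 in 6 libraries each, Zscan4c in 3 and Zscan4d in 2. Dppa3 alone had 2020 to 10300 CPM (counts scaled to a common library size). The whole list summed to 2570 to 10600 CPM, most of it Dppa3. Of 10 blood, stromal and immune cell markers, Hba-a1, Hbb-bs and Col3a1 were at 0 in all 20 libraries. Alas2, Ptprc, Col1a1 and Col1a2 were at 0 in 3, 16, 4 and 13. Cd68 (2.19 to 48.6 CPM), Pecam1 (4.82 to 71.6 CPM) and Pdgfra (0.548 to 11.5 CPM) were never at 0. That list summed to 25.5 to 89.1 CPM. The 11 markers of cumulus and granulosa cells summed to 0.0513 to 15.6 CPM. Fshr, Inhba, Amh, Has2, Ptx3 and Cyp19a1 were at 0 in 17, 16, 15, 13, 12 and 11 libraries. Inha and Pgr were at 0 in 10 each, Tnfaip6 and Foxl2 in 8 each and Cyp11a1 in 7. Tnfaip6 reached 9.39 CPM and Cyp11a1 6.1 CPM, the highest values of this list.

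Levels of different subunits were compared per transcript length, as FPKM over 19 libraries. Med10, a middle subunit, had the highest level, with a mean of 616 FPKM (290 to 1120). Med10 shares 4168 exonic bases with Gm26819, an opposite-strand gene outside the table, whose reads may be included where strand was not used. It was followed by the head subunit Med6, with a mean of 258 FPKM, and the middle subunits Med4 and Med31, with 173 and 148 FPKM. The ranges of these genes overlapped, so their order beyond Med10 is not a firm one. At the other end stood Cdk19 at 2.13 FPKM, Med12l at 1.14 FPKM and Med12 at 0.67 FPKM, all of the kinase module. Med16, a tail subunit, was also low, at 2.42 FPKM (0.58 to 5.25). The subunits of one complex differed widely in transcript level, and 3 kinase module genes stood at the bottom of the order.

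The composition of the pool differed between the late 2-cell and 4-cell controls. Head transcripts made up 8.85% and 9.85% of all Mediator FPKM in the late 2-cell libraries and 23.4% and 22.3% at the 4-cell stage. Med27 to Med30 went the other way, from 39.6% and 35.9% to 12.6% and 11.6%. The tail share was 5.25% and 5.51% at the late 2-cell stage and 1.58% and 1.44% at the 4-cell stage. These shares are descriptions without a test.

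**Figure D1:**
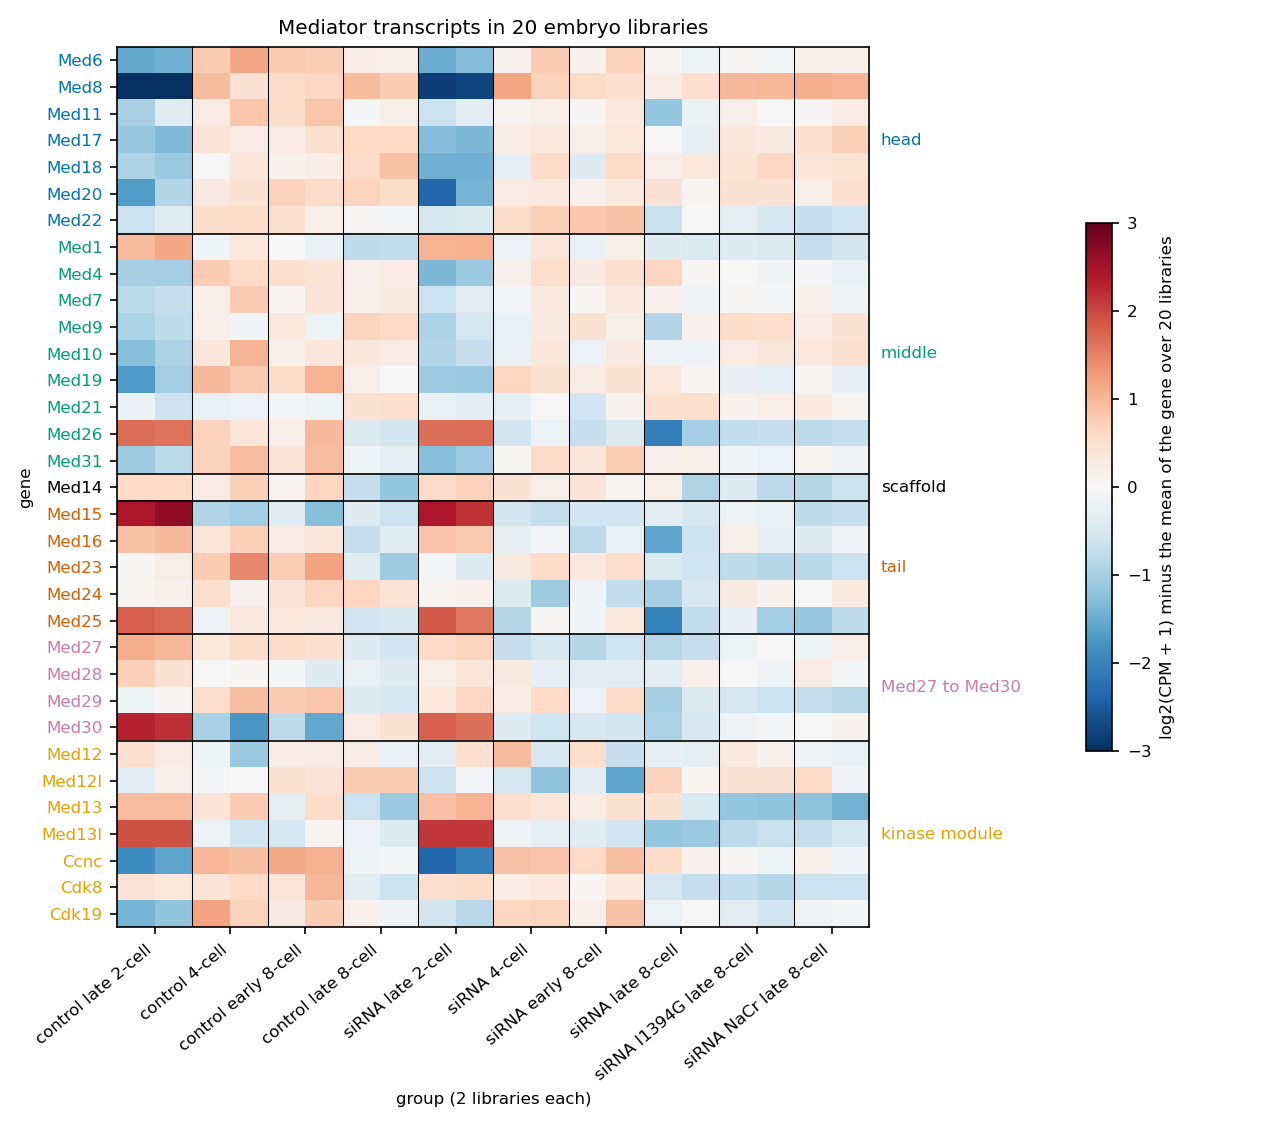
Heat map of log2(CPM + 1) for the 33 Mediator transcripts (rows, coloured by module) in each of the 20 libraries (columns, 2 per group), as the difference from the mean of that gene over all libraries, from -3 (blue) to 3 (red). The 4 late 2-cell libraries stand apart from the rest, with head genes low and Med15, Med30 and Med13l high.

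Most of the complex differed between the late 2-cell and the 4-cell stage in controls. Stage and a possible batch cannot be told apart over this step, since the late 2-cell libraries carry later sample numbers. Of the 33 members, 17 rose and 8 fell at an adjusted p under 0.05 (edgeR quasi-likelihood test, Benjamini-Hochberg over all genes), beside 61.2% of all genes called in this comparison. Among all genes 27.0% rose and 34.2% fell. The median log2 fold change of the members was 0.78, against -0.40 for all genes. With DESeq2 size factors the all-gene median of this comparison shifted by -0.25, and 16 members rose and 8 fell. On FPKM (limma) 14 rose and 10 fell. Over the same step the cumulus and granulosa markers went from 13.1 and 10.6 CPM to 1.03 and 0.229 CPM, with 3 of the 6 tested called lower, and the embryo markers from 2940 and 2900 CPM to 9970 and 8810 CPM. Their part in the member calls was not tested.

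All 7 head subunits rose. Med8, a head subunit, had 8.60 and 10.02 CPM in the late 2-cell controls and 184 and 129 CPM at the 4-cell stage. The rule that picks called members to name takes only those whose groups do not overlap, so that feature of them is no support. The log2 fold change of Med8 was 4.07 (SE 0.24, adjusted p = 1.74e-10). Med6, which sits where the head meets the middle module, went from 91.7 and 97.9 CPM to 455 and 603 CPM. The log2 fold change of Med6 was 2.48 (SE 0.23, adjusted p = 4.61e-08). Med17, a core of the head, rose by 1.57 and Med20 by 1.60 on the log2 scale, while Med11, Med18 and Med22 rose by between 1.08 and 1.39. Med20 shares 513 exonic bases with a gene on its own strand, and whether the counting kept them apart is not given in the sources used here. Leaving out late 2-cell control replicate 1 gave Med11 an adjusted p of 0.0566, and leaving out replicate 2 gave Med18 one of 0.0509.

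In the middle module 6 of 9 genes rose (Med19, Med10, Med31, Med4, Med7 and Med9), by 0.93 to 2.29 on the log2 scale. The call for Med9 was lost without late 2-cell control replicate 1 (adjusted p = 0.0839). Med1 and Med26 fell. Med1, the subunit that binds nuclear receptors, had 206 and 239.8 CPM in late 2-cell controls and 98.3 and 132 CPM in 4-cell controls, a log2 fold change of -0.95 (adjusted p = 0.00078). Med26, which recruits elongation factors to the complex, fell by 1.14 on the log2 scale (adjusted p = 0.00603). The scaffold transcript Med14 had 145 and 145 CPM before and 114 and 157 CPM after, with no call.

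The lowest log2 fold changes of the 33 were those of Med30 and Med15. Med15, a tail subunit contacted by lipid-regulating activators, had 124 and 145 CPM at the late 2-cell stage and 11.4 and 10.4 CPM at the 4-cell stage. Its log2 fold change was -3.63 (SE 0.30, adjusted p = 9.02e-09). Med30 went from 145 and 133 CPM to 14.0 and 7.79 CPM, a log2 fold change of -3.69 (SE 0.32, adjusted p = 2.1e-08). Med25, the tail subunit bound by the viral activator VP16, fell from 64.8 and 61.3 CPM to 16.0 and 22.5 CPM, by 1.71 on the log2 scale (adjusted p = 0.00145). Not every tail gene went down: Med23 rose by 1.05 (adjusted p = 0.00449), although without 4-cell control replicate 2 its adjusted p was 0.0889. Med24 had 47.0 and 48.3 CPM before and 64.0 and 48.6 CPM after, and Med16 had no call either. Med27 and Med28 fell by 0.61 and 0.56 and Med29 rose by 0.78. These calls were weaker than the others: without 4-cell control replicate 1 the adjusted p was 0.0902 for Med27, without late 2-cell control replicate 1 it was 0.205 for Med28, and without 4-cell control replicate 2 it was 0.0954 for Med29.

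Within the kinase module 3 of 7 members were called. Ccnc, the gene of cyclin C, had 37.3 and 45.1 CPM in late 2-cell controls and 276 and 257 CPM in 4-cell controls. Its log2 fold change was 2.69 (SE 0.21, adjusted p = 4.39e-09). Cdk19, one of the kinases, went from 3.75 and 4.39 CPM to 27.8 and 19.3 CPM, a log2 fold change of 2.53 (SE 0.37, adjusted p = 1.29e-05). Med13l, which like Med13 tethers the module to the core, fell from 103 and 103 CPM to 23.6 and 17.4 CPM, by 2.33 on the log2 scale (adjusted p = 4.07e-07). The other kinase, Cdk8, had 74.6 and 69.2 CPM before and 73.2 and 84.6 CPM after. Med13 went from 150.1 and 149 to 102 and 133 CPM, Med12 from 7.86 and 6.47 to 4.75 and 1.88 CPM, and Med12l from 8.53 and 12.7 to 10.4 and 10.8 CPM. None of these 4 passed the test.

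Promoter sequences of Med6, which rose, and Med15, which fell, are shown for the start of this window. Each is the 250 bases before a RefSeq start on GRCm38.p6, 5′ to 3′ on the strand of the gene. Capitals mark matches on either strand to CCGGAAG (bound by ETS factors such as GABP), GCGCATGCG (NRF1), GGGCGG (the GC box) and CCAAT. Med6 is at chr12:81595009-81595258 on the minus strand, and Med15 at chr16:17722901-17723150 on the minus strand, 1 of 2 starts listed for that gene.
Med6: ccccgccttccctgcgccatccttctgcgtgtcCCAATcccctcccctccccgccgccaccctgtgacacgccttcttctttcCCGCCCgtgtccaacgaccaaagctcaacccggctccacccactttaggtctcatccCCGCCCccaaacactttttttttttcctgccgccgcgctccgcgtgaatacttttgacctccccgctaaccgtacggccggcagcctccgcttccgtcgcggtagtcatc
Med15: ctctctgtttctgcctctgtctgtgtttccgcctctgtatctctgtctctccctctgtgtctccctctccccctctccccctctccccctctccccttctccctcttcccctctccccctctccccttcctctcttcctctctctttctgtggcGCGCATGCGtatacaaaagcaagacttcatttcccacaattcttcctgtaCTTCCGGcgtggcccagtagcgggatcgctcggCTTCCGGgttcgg
Med6 carried GC boxes and a CCAAT box, and Med15 carried an NRF1 match and a pair of ETS matches near the start. The other listed start of Med15 held an NRF1 match but no ETS match. Promoters were matched for 28 of the 33 members, giving 32 sequences, and Med24, Med30, Med8, Med23 and Cdk19 had none. Of the 32, 62.5% held a GC box, beside 32.7% of 32851 mouse promoters of the same length. An ETS match was in 18.8% of member promoters (Med10, Med14, Med15, Med17, Med19 and Med4) beside 6.91% of all. An NRF1 match was in 9.38% (3 promoters, of Med15 and Med4) beside 1.45%. CCAAT was in 37.5% beside 33.8%. Also searched were TATAAA (the TATA box), in 9.38% beside 12.4%, and AAGATGGC (YY1), in 3.12% (Med31) beside 1.56%. The matches are letters in a window, not sites shown to be bound.

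**Figure D2:**
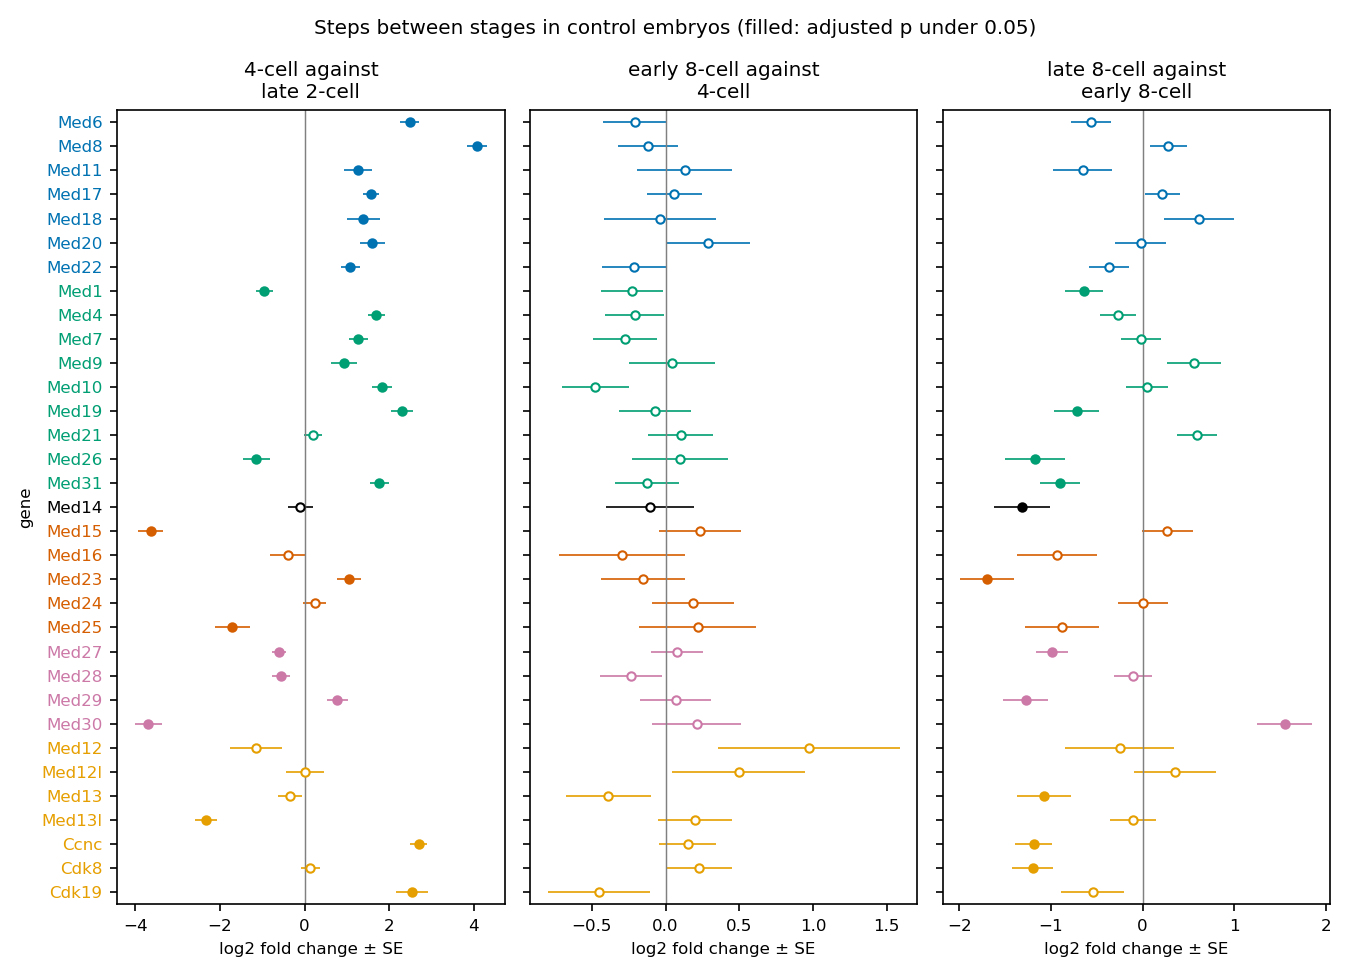
Log2 fold change (x axis, with its SE) of the 33 members (y axis, coloured by module) for each step between neighbouring stages in controls, with filled points for an adjusted p under 0.05. The first step holds 25 filled points, the second none and the third 12.

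From the 4-cell to the early 8-cell stage no member was called in controls, beside 1.13% of all genes (0.620% higher and 0.506% lower). No member had an unadjusted p under 0.05 either, and DESeq2 and limma also called 0. The member with the smallest p was Med10, with 648 and 1044 CPM at the 4-cell stage and 568 and 647 CPM at the early 8-cell stage.

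From the early to the late 8-cell stage 1 member rose and 11 fell in controls, beside 26.2% of all genes called. Over all genes 15.0% rose and 11.2% fell. The members' median log2 fold change was -0.37, against 0.11 for all genes. Med30 was the single riser: it had 16.1 and 8.97 CPM in the early 8-cell controls and 33.9 and 39.4 CPM in the late ones, a log2 fold change of 1.55 (SE 0.30, adjusted p = 0.00114). It had fallen at the first step, and its late 8-cell level stayed below the late 2-cell one. Med23, a tail subunit targeted by the adenoviral E1A protein, had 64.2 and 88.8 CPM early and 29.5 and 17.8 CPM late. Its log2 fold change was -1.70 (SE 0.29, adjusted p = 0.000463).

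The scaffold gene Med14 and 3 of the 7 kinase module genes (Ccnc, Cdk8 and Med13) were among those that fell. The other 4 were not called, and the estimate for Med12l was 0.36. Med14 had 102 and 150.4 CPM in early and 59.2 and 42.3 CPM in late 8-cell controls, a log2 fold change of -1.31 (adjusted p = 0.00412). Med29 fell by 1.27 (adjusted p = 0.00105), from 292 and 307 CPM to 127 and 121 CPM. Cdk8 went from 72.6 and 112 CPM to 44.6 and 36.0 CPM, a log2 fold change of -1.20 (adjusted p = 0.000908). The cyclin C gene Ccnc went from 303 and 288 CPM to 125 and 134 CPM, a log2 fold change of -1.19 (adjusted p = 0.000316). Med13, Med26, Med27, Med31, Med19 and Med1 also fell, with log2 fold changes between -1.17 and -0.64. None of the 7 head subunits was called. Without early 8-cell control replicate 2, and again without late 8-cell control replicate 2, 6 members were called in place of 12. Med14, Med13, Med26, Med31, Med19 and Med1 were the members whose call was lost in at least 1 such fit.

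The target of the siRNA was read in each control and siRNA library, and as group means in the rescues. Ep300 had 86.1 and 83.8 CPM in late 2-cell controls against 22.6 and 29.9 CPM with siRNA, and 48.3 and 88.4 CPM against 11.4 and 19.1 CPM at the 4-cell stage. At the early 8-cell stage it had 41.5 and 82.9 CPM in controls and 11.7 and 16.4 CPM with siRNA. The siRNA libraries were below both controls at these 3 stages. The log2 fold change was -2.15 at the 4-cell stage (adjusted p = 0.00128) and -2.15 at the early 8-cell stage (adjusted p = 0.000819). The 4-cell call for Ep300 was lost with the compared libraries alone (adjusted p = 0.0842). The early 8-cell call was lost on FPKM, with -0.67 (limma, adjusted p = 0.273), and -0.93 without the mismatched column (adjusted p = 0.0896). It was -1.69 at the late 2-cell stage, where the adjusted p was 0.318. There 4 of the 6 other fits called Ep300, and the adjusted p over the 6 ran from 0.000178 to 0.276. At the late 8-cell stage Ep300 had 22.0 and 15.2 CPM in controls and 16.2 and 13.2 CPM with siRNA, a log2 fold change of -0.36 (adjusted p = 0.5). The groups overlapped there, so Ep300 does not check the late 8-cell labels, and directions at that stage rest on the labels alone. In the rescue groups the mean of Ep300 was 15.5 CPM with I1394G (SD 1.06) and 12.1 CPM with NaCr (SD 0.71). With siRNA alone it was 14.7 CPM (SD 2.12), so Ep300 does not check the rescue labels either.

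P300 siRNA changed few Mediator transcripts before the late 8-cell stage: Med24 and Med27 were called at the 4-cell and early 8-cell stages, and Med26 at the early 8-cell stage. At the late 2-cell stage edgeR called 0 of 33 members, beside 0.00602% of all genes. Of the members, 3 had an unadjusted p under 0.05, and DESeq2 and limma also called 0. At the 4-cell stage 2 fell and none rose, beside 15.0% of all genes called (7.77% higher and 7.25% lower). At the early 8-cell stage 3 fell and none rose, beside 16.5% (8.21% higher and 8.30% lower). Without control replicate 1 there were 4 calls at the 4-cell and 5 at the early 8-cell stage, and without early 8-cell control replicate 2 there was 1. The embryo markers summed to lower levels with siRNA (3 and 4 of 10 called lower). They had 6250 and 5030 CPM at the 4-cell stage, against 9970 and 8810 CPM in controls. At the early 8-cell stage they had 4880 and 4800 CPM, against 9160 and 10600 CPM in controls. Of the 5 blood, stromal and immune cell markers tested, 1 was called higher and 2 lower at the 4-cell stage. At the early 8-cell stage 2 of these were called higher and 2 lower. The part of both marker lists in the member calls was not tested. The share of members called (6.06% and 9.09%) was below that of all genes at both stages. The medians of the members were -0.23 and -0.17, against 0.00 and 0.04 for all genes, and 23 and 25 of the 33 had a negative estimate.

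Med27, one of the subunits at the head and tail of the animal complex, was called at both of these stages. It had 613 and 571 CPM in late 2-cell controls and 435 and 459 CPM with siRNA, without a call. At the 4-cell stage Med27 had 359 and 420 CPM in controls and 178 and 207 CPM with siRNA, a log2 fold change of -1.02 (SE 0.18, adjusted p = 0.00131). At the early 8-cell stage it had 419 and 402 CPM in controls and 159 and 189 CPM with siRNA, a log2 fold change of -1.24 (SE 0.18, adjusted p = 0.000164). Both siRNA libraries were below both controls at each of the 3 stages. The naming rule requires this at the 4-cell and early 8-cell stages, so it is no support there. The calls at the 4-cell and early 8-cell stages held whichever library was left out. A fit of the 4 compared libraries alone gave an adjusted p of 0.107 at the 4-cell stage, and on FPKM the early 8-cell value was -0.58 (limma, adjusted p = 0.232), with a control column that does not match its counts.

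Med30 had the opposite direction at the 4-cell stage, with 14.0 and 7.79 CPM in controls and 21.5 and 18.5 CPM with siRNA. Its estimate was 0.89 (SE 0.30, adjusted p = 0.0546), without a call. Med30 was called higher there by the DESeq2 Wald test (adjusted p = 0.0266), by limma on FPKM (1.05, adjusted p = 0.0172) and without control replicate 1 (1.35, adjusted p = 0.0101). At the early 8-cell stage, where the siRNA difference of Med30 was 0.65, it was called without control replicate 1 (1.11, adjusted p = 0.0434).

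Med24, a tail subunit first isolated with the thyroid hormone receptor, showed the difference from the 4-cell stage on. In late 2-cell embryos the libraries had 47.0 and 48.3 CPM in controls and 46.8 and 48.5 CPM with siRNA. At the 4-cell stage they had 64.0 and 48.6 CPM in controls and 33.2 and 20.7 CPM with siRNA, a log2 fold change of -1.07 (SE 0.28, adjusted p = 0.0172). At the early 8-cell stage Med24 had 57.8 and 70.2 CPM in controls and 40.3 and 25.9 CPM with siRNA, a log2 fold change of -0.95 (SE 0.28, adjusted p = 0.0266). Leaving out siRNA replicate 2 raised the adjusted p to 0.148 at the 4-cell and 0.22 at the early 8-cell stage. The call was also lost without 4-cell control replicate 1 (adjusted p = 0.0662) and without early 8-cell control replicate 2 (adjusted p = 0.157). On FPKM Med24 had -0.82 at the 4-cell stage (limma, adjusted p = 0.0675) and -0.25 at the early 8-cell stage (limma, adjusted p = 0.705), the latter with the mismatched control column. Without that column the early 8-cell value was -0.51 (adjusted p = 0.318). With the compared libraries alone the adjusted p was 0.193 and 0.066.

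Med26, the subunit that brings elongation factors, was alike in the late 2-cell groups, with 64.5 and 63.0 CPM in controls and 63.8 and 64.9 CPM with siRNA. At the 4-cell stage it had 32.3 and 25.7 CPM against 12.8 and 17.4 CPM, a log2 fold change of -0.93 (adjusted p = 0.0652). At the early 8-cell stage Med26 had 22.6 and 39.3 CPM in controls and 11.8 and 14.4 CPM with siRNA. The log2 fold change was -1.25 (SE 0.34, adjusted p = 0.0161). The call was lost without control replicate 2 (-0.79, adjusted p = 0.213), without siRNA replicate 1 (adjusted p = 0.118) and without siRNA replicate 2 (adjusted p = 0.0516). It was also lost with the compared libraries alone (adjusted p = 0.0586) and on FPKM (-0.37, limma, adjusted p = 0.509), also without the mismatched column (-0.43, adjusted p = 0.413).

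The starts of Med26 and Med27 are printed in the same way for comparison with those of Med6 and Med15. Med26 is at chr8:72548311-72548560 on the minus strand, and Med27 at chr2:29346560-29346809 on the plus strand, 1 of 2 starts listed for that gene.
Med26: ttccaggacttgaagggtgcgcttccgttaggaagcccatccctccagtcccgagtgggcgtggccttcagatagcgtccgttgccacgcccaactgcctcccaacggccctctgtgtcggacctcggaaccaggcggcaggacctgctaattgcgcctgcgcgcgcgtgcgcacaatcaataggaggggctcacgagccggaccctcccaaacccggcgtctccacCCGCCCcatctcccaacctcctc
Med27: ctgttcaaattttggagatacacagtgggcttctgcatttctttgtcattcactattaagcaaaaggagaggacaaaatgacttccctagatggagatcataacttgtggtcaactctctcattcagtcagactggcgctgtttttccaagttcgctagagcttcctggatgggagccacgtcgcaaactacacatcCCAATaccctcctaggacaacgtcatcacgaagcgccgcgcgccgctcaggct
The pair share no marked motif: Med26 held a GC box 23 bases before its start, and Med27 a CCAAT box 53 bases before its own. Their base composition also differed, with 22 CpG and 65.6% GC in Med26 and 11 CpG and 48.4% GC in Med27. The other listed start of Med27 held none of the motifs searched.

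At the late 8-cell stage 1 member rose and 6 fell with siRNA, beside 28.0% of all genes called (13.6% higher and 14.3% lower). The members' share was 21.2%. Their median log2 fold change was -0.28, against 0.06 for all genes. Med24 had 69.2 and 59.2 CPM in controls and 21.8 and 30.8 CPM with siRNA, a log2 fold change of -1.27 (SE 0.28, adjusted p = 0.00322). It was the one member at this stage whose call held in each fit that left out a library, and on FPKM too (-0.76, adjusted p = 0.0459).

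The other late 8-cell calls each depended on single libraries. Med30 had 33.9 and 39.4 CPM in controls and 14.3 and 20.1 CPM with siRNA, a log2 fold change of -1.07 (SE 0.30, adjusted p = 0.0131). Med26 had 14.4 and 13.1 CPM in controls and 3.98 and 9.19 CPM with siRNA, a log2 fold change of -0.96 (SE 0.34, adjusted p = 0.044). The lower siRNA library of both genes is replicate 1, the shallowest of the series, without which the adjusted p was 0.0923 for Med30 and 0.257 for Med26. Med9, a middle subunit, had 71.4 and 68.2 CPM in controls and 23.6 and 48.4 CPM with siRNA, a log2 fold change of -0.93 (SE 0.30, adjusted p = 0.0266). Without siRNA replicate 1 its log2 fold change was -0.54 (adjusted p = 0.22). Med13 rose: it had 49.4 and 35.6 CPM in controls and 106.5 and 56.2 CPM with siRNA, a log2 fold change of 0.92 (SE 0.29, adjusted p = 0.026). Without siRNA replicate 1 the value for Med13 was 0.40 (adjusted p = 0.372), and without control replicate 2 it was 0.69 (adjusted p = 0.223). Its paralogue Med13l had 23.6 and 19.9 CPM in controls and 11.4 and 11.9 CPM with siRNA, a log2 fold change of -0.89 (adjusted p = 0.0159). Med17 fell by 0.74 (adjusted p = 0.00838). On FPKM Med13l and Med17 had -0.26 and -0.25 (limma, adjusted p = 0.314 and 0.359). Leaving out control replicate 1 ended the calls for Med13l (adjusted p = 0.122), Med17 (0.0553), Med26 (0.17) and Med9 (0.115). Leaving out control replicate 2 ended those for Med17 (0.0515), Med26 (0.112), Med30 (0.0912) and Med9 (0.0898). The call for Med13l was also lost without siRNA replicate 1 (0.0597) or 2 (0.0637), and that for Med17 without siRNA replicate 2 (0.0694).

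The late 8-cell siRNA libraries differed from the controls in other ways. Their cumulus and granulosa markers summed to 7.70 and 15.6 CPM against 0.0513 and 0.662 CPM, with 3 of 6 tested called, all higher. Their embryo markers summed to 3170 and 3800 CPM against 8440 and 7870 CPM. Of these 10 embryo markers 1 was called higher and 5 lower, and 5 had a positive estimate. Of the 5 blood, stromal and immune cell markers tested, 1 was called higher and 1 lower. Replicate 1 held 3202332 counts, and 2 of 33 members were called without it, as without control replicate 2, and 3 without control replicate 1. The part of these differences in the member calls was not tested. The direction of the whole comparison also depended on scaling. With DESeq2 size factors the all-gene median shifted by 0.14, the share of higher calls went from 48.8% to 58.4%, and 2 members rose and 5 fell. On FPKM 74.8% of calls were higher, and among members 6 rose (Ccnc, Med1, Med13, Med28, Med31 and Med4) and 1 fell (Med24). Med27, without a call at this stage, had -0.28 on counts and 0.20 on FPKM. In bulk libraries such as these, fewer cells with a transcript and less of it per cell cannot be told apart.

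Averaged over the 4 stages, 6 members fell with siRNA and none rose, beside 30.7% of all genes called (15.9% higher and 14.8% lower). Med27 had a mean log2 fold change of -0.74 (SE 0.09, adjusted p = 7.66e-06), Med24 of -0.82 (SE 0.14, adjusted p = 0.00025) and Med26 of -0.78 (SE 0.17, adjusted p = 0.00163). All 3 were called in each of the 16 fits that left out 1 library and in each of the 8 other fits. Med12l, the paralogue of Med12, had -0.74 (SE 0.23, adjusted p = 0.0198). It shares exons with a pair of genes on the opposite strand (Igsf10 and P2ry12), whose reads cannot be told apart where strand was not counted. The call for Med12l was lost without late 2-cell siRNA replicate 1 (adjusted p = 0.0572), late 2-cell control replicate 2 (0.0557), 4-cell siRNA replicate 2 (0.0504) or late 8-cell siRNA replicate 2 (0.0516), and on FPKM it had -0.15 (limma, adjusted p = 0.427). Med16 and Med17 fell by 0.60 and 0.26, with adjusted p-values of 0.0449 and 0.0497, and were called in 4 and 3 of the 16 left-out fits. Without 4-cell control replicate 1 there were 10 called members, and without late 2-cell control replicate 2 or late 2-cell siRNA replicate 1 there were 3. With the late 8-cell stage left out, an alternative chosen after Ep300 was seen there, Med27 had -0.89, Med26 -0.72, Med24 -0.67 and Med12l -0.86, all still called, while Med16 and Med17 were not.

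**Figure D3:**
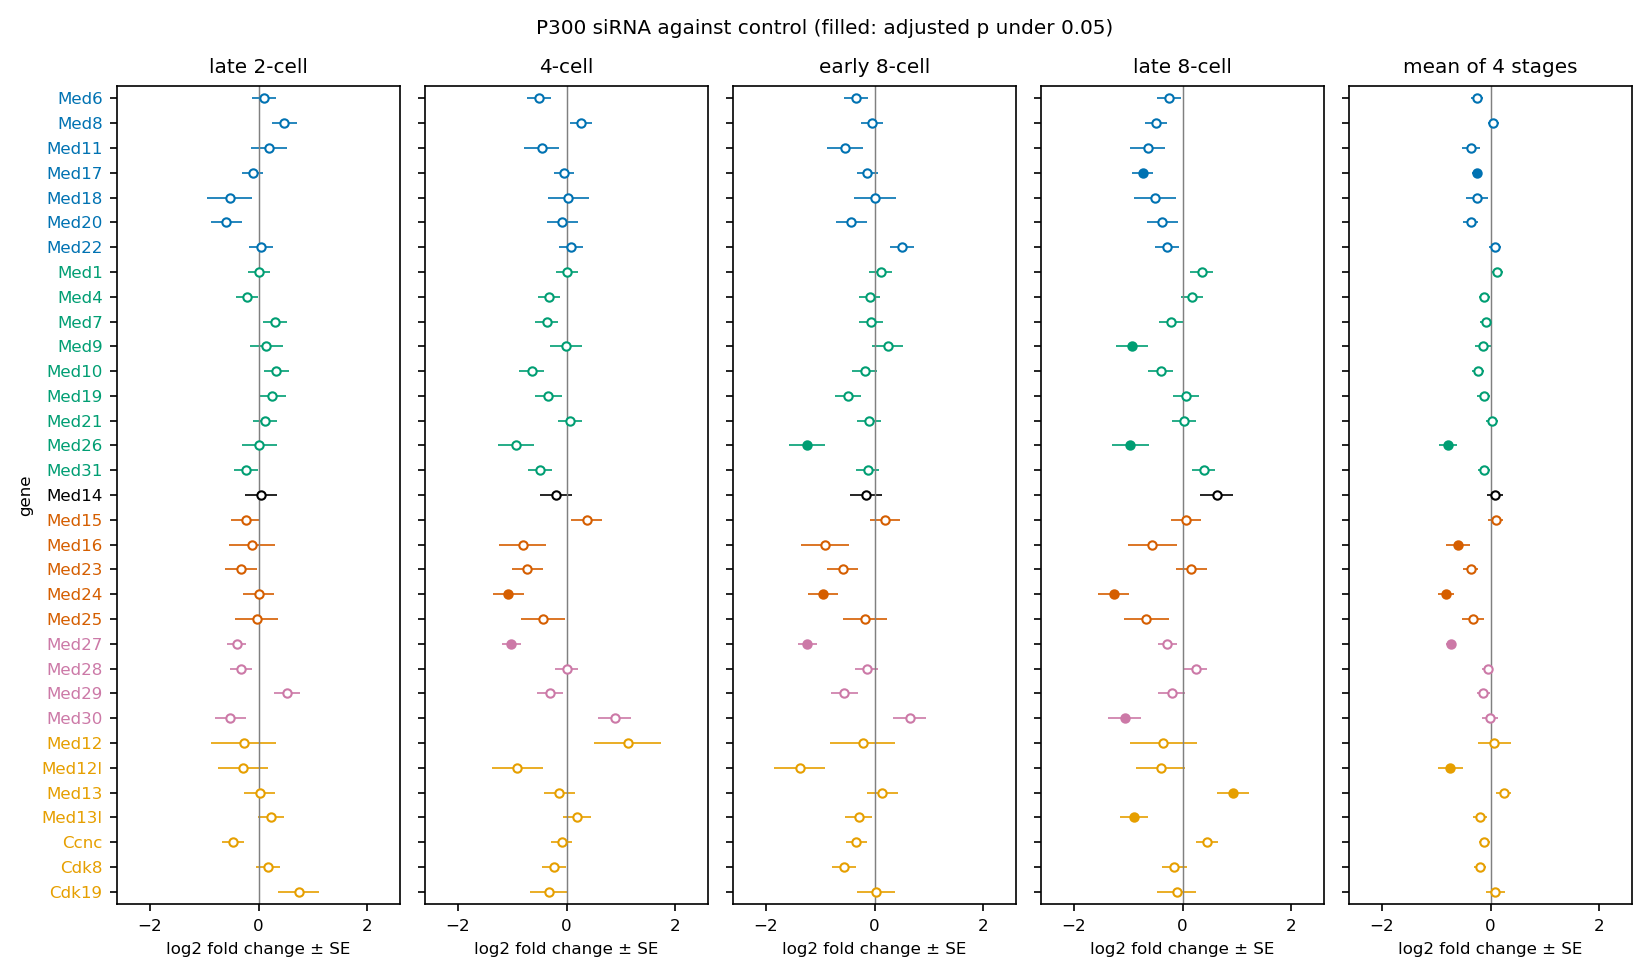
Log2 fold change of P300 siRNA against control (x axis, with its SE) for the 33 members (y axis, coloured by module) at each stage and as the mean of the 4 stages, with filled points for an adjusted p under 0.05. Filled points number 0, 2, 3, 7 and 6 from left to right, and Med24 is filled in the last 4 panels.

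Whether the siRNA difference itself changed between stages was tested by interaction terms. Between the late 2-cell and 4-cell stages edgeR called 0 members, beside 4.28% of all genes (2.37% higher and 1.90% lower). Of the members, 6 had an unadjusted p under 0.05, DESeq2 called 2 and limma 1, and without 4-cell control replicate 1 edgeR called 2. Between the 4-cell and early 8-cell stages it called 0 members and 0% of all genes, and 0 members had an unadjusted p under 0.05, with no call by DESeq2 or limma. Between the early and late 8-cell stages 2 of 33 were called, beside 6.63% of all genes (3.01% higher and 3.62% lower). For Med27 the siRNA difference was -1.24 early and -0.28 late, a change of 0.96 (SE 0.25, adjusted p = 0.0294). The control level of Med27 itself fell over that interval, from 419 and 402 CPM to 221 and 193 CPM, while the siRNA libraries stayed between 159 and 189 CPM. For Med30 the siRNA difference was 0.65 early and -1.07 late, a change of -1.71 (SE 0.42, adjusted p = 0.023). Med30 had 16.1 and 8.97 CPM in early 8-cell controls and 20.1 and 19.1 CPM with siRNA, so the rise seen in controls was not seen in the siRNA groups, at 14.3 and 20.1 CPM late. Neither call held in every fit that left out a library. That of Med27 was lost without early 8-cell control replicate 1 (adjusted p = 0.059) or 2 (0.0653), late 8-cell control replicate 1 (0.0682) or 2 (0.155), or early 8-cell siRNA replicate 1 (0.104). That of Med30 was lost without early 8-cell control replicate 2 (0.0907), late 8-cell control replicate 1 (0.0545) or 2 (0.104), early 8-cell siRNA replicate 1 (0.055) or late 8-cell siRNA replicate 1 (0.0742). Without late 8-cell siRNA replicate 2 there were 5 called members. With DESeq2 size factors the share of higher calls in this comparison went from 45.4% to 60.9% over all genes, and both members were still called.

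**Figure D4:**
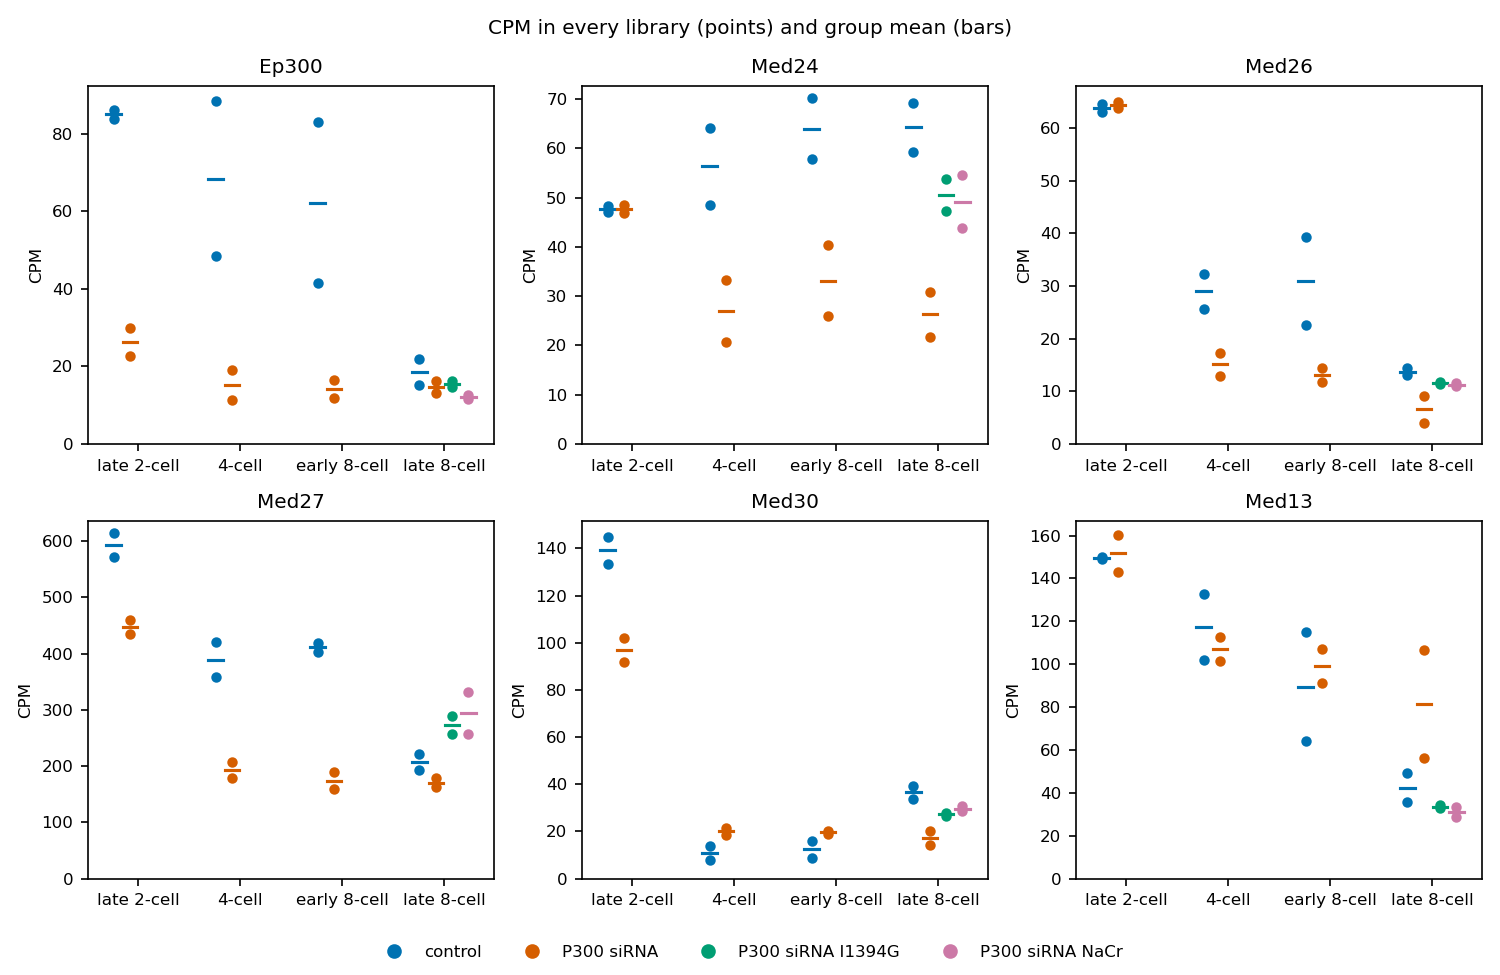
CPM in every library (points) with the group mean (bars) by stage for Ep300 and the members Med24, Med26, Med27, Med30 and Med13, each panel starting at 0. Med24, Med26 and Med27 have both siRNA points below both control points at the 4-cell and early 8-cell stages. Where a member was called, the naming rule requires this.

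The 2 rescue groups were set against siRNA alone and against controls at the late 8-cell stage. The comparisons with siRNA alone use the same siRNA libraries as the comparison of siRNA with control. With I1394G, 2 members were higher and 1 lower than with siRNA alone, beside 10.8% of all genes called (6.19% higher and 4.58% lower). With NaCr, 4 were higher and 1 lower, beside 15.3% (8.77% higher and 6.57% lower). The members' medians were 0.09 and 0.11, against -0.07 and -0.14 for all genes. The embryo markers summed to 7880 and 7520 CPM with I1394G and to 9450 and 10100 CPM with NaCr, against 3170 and 3800 CPM with siRNA alone. The cumulus and granulosa markers summed to 5.56 and 4.05 CPM with I1394G and to 5.55 and 2.36 CPM with NaCr, against 7.70 and 15.6 CPM. For either rescue group 5 of the 10 embryo markers were called against siRNA, and the part of these differences in the member calls was not tested.

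Med24 had 21.8 and 30.8 CPM with siRNA alone, 53.8 and 47.3 CPM with I1394G and 43.8 and 54.6 CPM with NaCr, beside 69.2 and 59.2 CPM in controls. Its log2 fold change against siRNA was 0.92 with I1394G (SE 0.28, adjusted p = 0.043) and 0.88 with NaCr (SE 0.28, adjusted p = 0.0421). Both rescue groups lay between the siRNA and control libraries. Med27 had 162 and 178 CPM with siRNA, 258 and 288 CPM with I1394G and 258 and 331 CPM with NaCr, while controls had 221 and 193 CPM. Its log2 fold change against siRNA was 0.68 with I1394G (SE 0.18, adjusted p = 0.0197) and 0.79 with NaCr (SE 0.18, adjusted p = 0.00584). For Med27 the rescue libraries lay above the controls as well, though without a call against them.

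Med13 had 106.5 and 56.2 CPM with siRNA, 34.2 and 33.1 CPM with I1394G, 33.4 and 28.7 CPM with NaCr and 49.4 and 35.6 CPM in controls. Its log2 fold change against siRNA was -1.26 with I1394G (SE 0.30, adjusted p = 0.0114) and -1.37 with NaCr (SE 0.30, adjusted p = 0.00474). The head subunits Med17 and Med8 were called with NaCr only: Med17 had 71.9 and 58.8 CPM with siRNA and 101 and 119 CPM with NaCr (log2 fold change 0.76, adjusted p = 0.0125). Med8 had 111 and 137 CPM with siRNA and 205 and 195 CPM with NaCr (log2 fold change 0.69, adjusted p = 0.0318). With I1394G the values were 0.44 for Med17 (adjusted p = 0.142) and 0.62 for Med8 (adjusted p = 0.0613). The difference between the rescue groups was not called for either gene.

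These calls rest on few libraries. Without siRNA replicate 1, and again without either I1394G library, none of the I1394G calls remained, and without siRNA replicate 2 there were 8. For NaCr 2 members were called without siRNA replicate 1, 3 without NaCr replicate 1, 0 without NaCr replicate 2 and 9 without siRNA replicate 2. DESeq2 size factors lowered the share of higher calls over all genes from 57.5% to 45.3% for I1394G and from 57.2% to 48.0% for NaCr. On FPKM no member was higher than with siRNA alone, and 5 and 6 were lower, with Med13 the member called in common with the counts in each case.

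Against controls no member was called for either rescue group. With I1394G edgeR called 0, beside 3.17% of all genes (1.99% higher and 1.18% lower). Of the members, 1 (Med27) had an unadjusted p under 0.05, and DESeq2 and limma called 0. With NaCr edgeR called 0, beside 1.57% of all genes tested (1.07%, or 178 genes, higher and 83 genes lower). Here 2 members (Med22 and Med27) had an unadjusted p under 0.05, DESeq2 called 1 and limma 0. The largest estimates were 0.60 for Med16 with I1394G and -0.66 for Med22 with NaCr (SE 0.43 and 0.22). A fit of the compared groups alone called 3 members for each. Between I1394G and NaCr edgeR called 0 members, as it did for 0% of all genes, with 1 at an unadjusted p under 0.05 (Med15) and 0 by DESeq2 or limma.

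The kinase module exists with either of a pair of paralogues at 3 positions, and their shares were followed as a share of the summed FPKM of the pair. Cdk8 was the main kinase transcript throughout. Cdk19 made up 2.55% and 3.17% of the kinase pair in late 2-cell controls, 16.4% and 10.6% at the 4-cell stage and 12.9% and 13.4% at the late 8-cell stage. Over all 20 libraries, with the mismatched FPKM column kept, its median share was 12.0%. By raw counts, which also weigh the longer transcript, the median was 20.8%.

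Med13l made up 43.6% and 44.0% of its pair in late 2-cell controls, 20.7% and 13.0% at the 4-cell stage and 35.1% and 38.7% at the late 8-cell stage. With siRNA the late 8-cell shares were 10.8% and 19.4%, below those of the controls. They were 33.5% and 35.9% with I1394G and 35.1% and 41.6% with NaCr. Both genes of the pair contributed: Med13 was higher and Med13l lower in the siRNA libraries than in the controls. The shares rest on the same libraries as the calls for Med13 and were not tested.

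Med12l, unlike the other second paralogues, was the more abundant of its pair in most libraries. Its median share was 64.7% over all 20 libraries, with the mismatched FPKM column kept. It was 64.2% and 82.4% in 4-cell controls and 35.6% and 50.0% with siRNA. At the late 8-cell stage it was 71.7% and 78.0% in controls and 78.1% and 68.9% with siRNA, with overlap. Med12 had no more than 132 counts in any library, so these shares carry a wide counting error. The module sum of kinase transcripts was 4.20% and 4.09% of all Mediator FPKM in late 2-cell controls and 2.56% and 2.51% in late 8-cell controls.

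**Figure D5:**
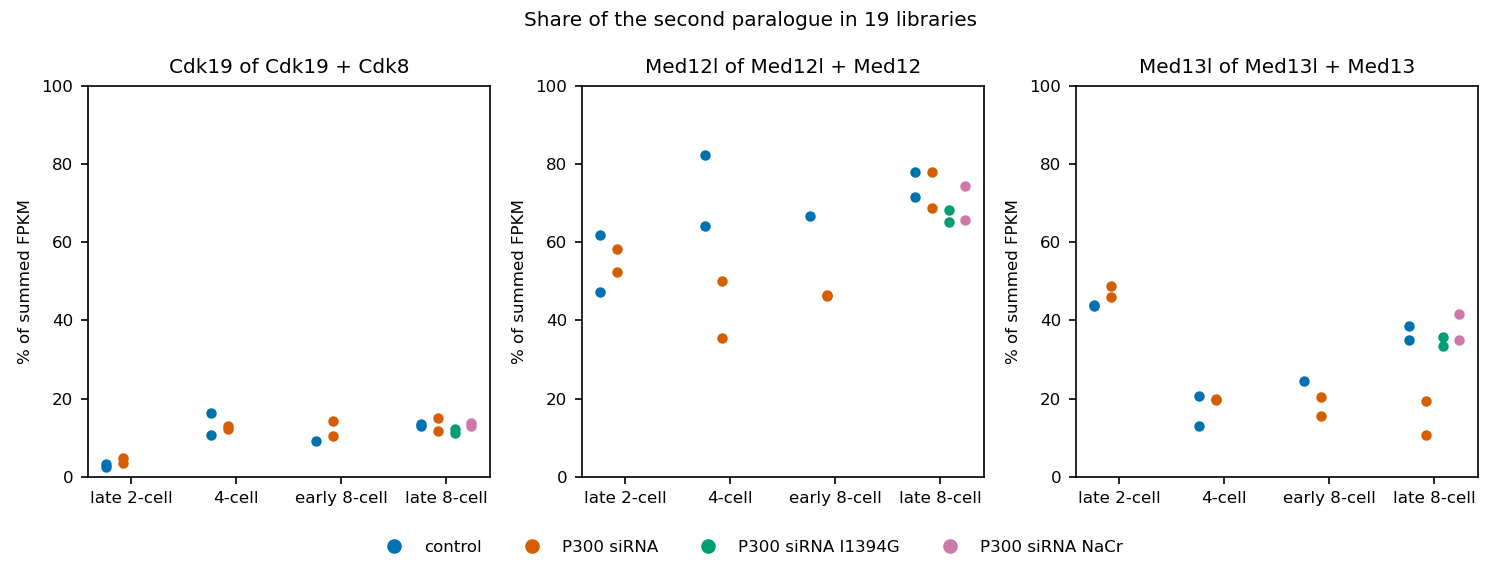
Share (y axis, %) of Cdk19, Med12l and Med13l in the summed FPKM of each paralogue pair by stage (x axis), 1 point per library, 19 libraries. The siRNA points for Med13l at the late 8-cell stage, 10.8% and 19.4%, lie below those of the other 3 groups.

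Other parts of the transcription machinery were read from lists for comparison, as called members higher and lower with siRNA. At the late 2-cell stage none of them had a call. Of 13 RNA polymerase II subunit genes 0 rose and 0 fell at the 4-cell stage, 1 and 1 at the early 8-cell and 1 and 6 at the late 8-cell stage. Polr2h and Polr2c, subunits of the enzyme, fell by 0.95 and 0.89 at the late 8-cell stage (adjusted p = 0.00138 and 0.00217). Of 18 general transcription factor genes, which position the polymerase, 2 rose and 5 fell, then 2 and 1, then 0 and 6. Gtf2h3, a TFIIH subunit, fell by 0.95 at the late 8-cell stage (adjusted p = 0.00172), and Gtf2a2, a TFIIA subunit, rose by 1.09 at the early 8-cell stage (adjusted p = 0.00219).

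Of 15 TFIID subunit genes 1 rose and 3 fell at the 4-cell stage, 1 and 1 at the early 8-cell stage and 2 and 1 at the late 8-cell stage. Taf9b rose from 0.50 CPM in late 8-cell controls to 47.8 CPM with siRNA (log2 fold change 6.54, adjusted p = 5.15e-06), and Taf6 fell by 1.25 at the early 8-cell stage (adjusted p = 0.00133). Of 22 genes of pause release and elongation 0 rose and 3 fell, then 0 and 2, then 1 and 5. Nelfcd, of the pausing factor NELF, fell from 146.5 to 51.5 CPM at the late 8-cell stage (adjusted p = 0.000407), and Aff4, the scaffold of the super elongation complex, rose by 1.43 at the late 8-cell stage (adjusted p = 0.000666). Of 8 genes of p300 and coactivators that bind it 1 rose and 1 fell, then 1 and 2, then 1 and 1. Ep300 itself is in this list, so the falls at the 4-cell and early 8-cell stages include the siRNA target. In that list Kat2a, an acetyltransferase, fell by 1.46 at the late 8-cell stage (adjusted p = 0.00169), and Ncoa1, a nuclear receptor coactivator, rose by 1.24 at the early 8-cell stage (adjusted p = 0.0135). Of 7 cohesin and loader genes, which hold enhancer loops with Mediator, 0 rose and 1 fell, then 0 and 3, then 1 and 2. Rad21 and Stag2, cohesin subunits, fell by 1.11 and 1.22 at the early 8-cell stage (adjusted p = 0.00231 and 0.00626). The backgrounds of these counts are the shares of all genes called at each stage, 15.0%, 16.5% and 28.0%.

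Exon overlap limits some members: 7 of the 33 share exonic bases with another gene in the table, 6 of them on the opposite strand. They are Ccnc, Med12l, Med13, Med19, Med20, Med21 and Med31. Whether the counting used strand is not given in the sources used here, so reads of these genes and their partners may be mixed. Med24, Med26 and Med27 share none with a gene in the table. They share 81, 381 and 145 exonic bases with Gm22059, Gm17435 and Gm13402, which are outside it. Med10, Cdk19, Med12, Med13l, Med15, Med23, Med29 and Med7 also overlap only genes outside the table. Reads of such partners may have been counted to the members.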

How the data were processed

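RNA sequencing of 20 libraries (10 groups of 2) was used, with 16 comparisons. Raw counts per gene were deposited by the authors without normalisation. FPKM values were deposited by the authors per gene length and depth. The tools bcl2fastq 2.20.0.422 and cutadapt 4.1, HISAT2 (2.2.1), Cufflinks (2.2) and the mouse build mm9 are listed in the submitters' processing notes, without their order. The counting tool, its strand setting and the annotation are not given in the sources used here.

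The counts were fitted with edgeR 4.0.16 under R 4.3.3: default low-count filter by group (16603 of 25208 genes kept), TMM scaling, 1 coefficient per group over all 20 libraries (10 residual and 7.98 prior degrees of freedom), two-sided quasi-likelihood F test, Benjamini-Hochberg adjustment over all genes tested and a call at 0.05. CPM values were computed here from the TMM-scaled sizes. An SE is the log2 fold change over the square root of F. The fit was tested on simulated data. Library totals of 3202332 to 24785201 counts set the precision, which is lowest for the rarest transcripts (Med12, Med16). Groups came from the sample labels.

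Values per library were given for Ep300, with group means in the rescues, and for the kinase module. Per comparison they were also given for up to 4 called members in each direction. These had the largest log2 fold change, no overlap of libraries and a group mean that reached 10 CPM. Of other lists up to 2 called genes were named by smallest adjusted p. Members outside this rule, such as Med27 at the late 8-cell stage, are named after their values were seen. The members and lists were chosen with earlier results of these data known. The labels do not say whether replicate numbers stand for shared animals or days.

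As alternatives the fit was run in edgeR with the size factors of DESeq2 1.42.0 and without the low-count filter, and replaced by the Wald test of DESeq2 and by limma 3.58.1 on log2(FPKM + 1) for genes with at least 1 FPKM in 2 libraries. Further ones used only the compared groups, added a replicate block or left out each library in turn. Limma without the FPKM column that does not match its counts and the mean of the 3 earlier stages were added after seeing the data. Promoters are from RefSeq on GRCm38.p6 and exon overlaps from GENCODE, both used for names, letters and overlaps only, since the counts were made on mm9.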

Additional observations from a re-analysis of the deposited data

Results flagged for a closer look

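For 2 of 33 members (6.06%) the siRNA difference changed between the early and late 8-cell stages by an interaction term, beside 6.63% of all genes. In Med27 the difference moved by 0.96 on the log2 scale (adjusted p = 0.0294) and in Med30 by -1.71 (adjusted p = 0.023). Neither call held in every fit that left out a library. Both were lost in the edgeR fit of the compared groups alone (adjusted p = 0.0733 for Med27 and 0.076 for Med30). Cumulus and granulosa markers summed to 7.70 and 15.6 CPM in the late 8-cell siRNA libraries and to 0.0513 and 0.662 CPM in their controls. Their part in these changes was not tested.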

How the results depend on the processing

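Of 65 called member values 30 held in every fit that left out a library: 24 of 37 in the control steps and 6 of 28 elsewhere, namely Med27 at the 4-cell and early 8-cell stages, Med24 at the late 8-cell stage, and Med24, Med26 and Med27 as means of 4 stages. With 1 library left out, the lone one is assumed to vary like the other groups. The number of called members then ranged from 0 to 0 for siRNA against control at the late 2-cell stage, 2 to 4 at the 4-cell, 1 to 5 at the early 8-cell, 2 to 9 at the late 8-cell stage and 3 to 10 for the mean. It was 0 to 2, 0 to 0 and 0 to 5 for the 3 changes between stages. For I1394G and NaCr against siRNA it was 0 to 8 and 0 to 9, and for either against control or each other 0 to 0. In controls it was 20 to 24, 0 to 0 and 6 to 11 for the successive steps.

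A fit of the compared groups alone called 1 member at the late 2-cell, 0 at the 4-cell, 1 at the early 8-cell and 4 at the late 8-cell stage for siRNA, 0 for the late against early 8-cell change, 1 each for I1394G and NaCr against siRNA and 3 each for these against control; fewer libraries inform the spread there. The DESeq2 Wald test called 5 at the 4-cell stage, 2 for the change from late 2-cell to 4-cell (2 also without a filter) and 1 for NaCr against control, and DESeq2 factors 3 for NaCr against siRNA. On FPKM limma called 0 at the early 8-cell stage (1 without the mismatched column), 3 for the mean, 1 for each of the first and last changes between stages (1 without the column for the last) and 5 for I1394G against siRNA. Without that column it called 6 for late against early 8-cell controls, and Med17 as the mean of 4 stages reversed to 0.03 (adjusted p = 0.812). The cause was not tested. The Cdk19 share moved to 20.8% by raw counts, which weigh transcript length.

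The difference between replicates 1 and 2 correlated between groups at r from -0.096 to 0.431 (45 pairs of groups, median 0.001, 5 over 0.1). The median was near 0, but some pairs of groups correlated, and a shared effect within those was not tested. With a replicate block 3 members were called at the 4-cell, 4 at the early 8-cell and 7 at the late 8-cell stage, and no count moved by over 1.5 times. Among called members named here, Med17 as the mean of 4 stages was the one whose call was lost (adjusted p = 0.0535).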
